A study of Mus musculus with 10 samples.

Results

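The mRNAs of the respiratory chain and of ATP synthase were followed across the nuclear and the mitochondrial genome in regenerating tibialis anterior (TA) muscle of the mouse. Members were the protein-coding genes with a symbol beginning Nduf, Uqcr, Cox4 to Cox8 or Atp5, the genes Sdha to Sdhd, and the protein genes of the mitochondrial genome, each with at least 10 counts in at least 5 of the 10 libraries. Of 25700 listed genes, 106 had such a symbol and 98 passed the count minimum, 91 of them nuclear and 7 mitochondrial. Complex I held 44 nuclear and 5 mitochondrial members, complex II 4 nuclear members, complex III 8 nuclear and 1 mitochondrial, complex IV 18 nuclear and 1 mitochondrial, and complex V 17 nuclear members. The symbols that did not pass were Cox7b2, Cox8c, mt-Co2, mt-Co3, mt-Atp6, mt-Atp8, mt-Nd3 and mt-Nd4l.

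The libraries were made from whole TA muscle of 12-week-old male C57BL/6 mice at day 6 after injury with cardiotoxin (CTX), a snake toxin that destroys myofibers and sets off their replacement from muscle stem cells. In the 5 miR-501KO mice (genotype Pax7CremiR-501fl/Y, labelled miR-501 -/-) the floxed precursor of the X-linked miR-501 was removed by Cre recombinase expressed from the Pax7 locus. Pax7 marks muscle stem cells, and the Cre was not inducible. By design the deletion therefore concerns the Pax7 lineage, and the other cells of the muscle should keep the miRNA. The 5 controls were Pax7Cre mice, labelled wild type, so the Cre allele and the injury were common to both groups. The deleted precursor was not analysed here. Each library counted 18609222 to 24753258 reads on genes. All 18 genes of a list of mature fast fiber markers were detected in each of the 10 muscles. Levels are given in CPM, read counts scaled to the size of each library. In bulk muscle, fewer cells of a type and less RNA per cell cannot be told apart.

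The respiratory chain passes electrons from NADH (complex I) and succinate (complex II) through complexes III and IV to oxygen and pumps protons across the inner mitochondrial membrane, and complex V, the ATP synthase, uses the gradient to make ATP. Most subunits are encoded in the nucleus and imported, while the mitochondrial genome encodes a few hydrophobic core subunits of complexes I, III, IV and V and none of complex II. Skeletal muscle uses its own isoforms of several complex IV subunits, and these replace the widely expressed isoforms as myofibers mature.

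The 5 Pax7Cre muscles were not alike, and this touches every comparison below. Pax7Cre mouse 2 had the highest level of the 10 mice in 92 of the 98 members (23.3% of the 14410 genes tested), and Pax7Cre mouse 4 had the lowest in 87 (19.4% of all genes). Mouse 2 was highest and mouse 4 lowest at the same time in 85 members (10.8% of all genes). These mice also took opposite ends of the first principal component of all genes, which held 33.0% of the variance, with coordinates of 43.9 and -27.5 against -8.97 to 16.9 for the other mice. The medians of the fold changes, the summed levels and the spread are therefore also given without them.

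Only 7 of the 13 mitochondrial mRNAs had usable counts, and sequence shared with other annotated genes differed between the measured and the unmeasured ones. Over the 10 libraries mt-Nd1, the ND1 core subunit of complex I, was counted 240565 to 529751 times, whereas mt-Co2 and mt-Co3, core subunits of complex IV, and mt-Atp6, the proton channel subunit of complex V, were counted at most 2 times in any library. Counts for mt-Nd3 and mt-Nd4l, complex I core subunits, were 0 in every library. For each gene, all 100-base windows of its transcripts, the length of a read, were searched in the transcripts of all other genes of GENCODE M21 (GRCm38). Of 585 windows of mt-Co2, 3 occurred in no other gene. The corresponding number was 1 of 685 for mt-Co3, 3 of 582 for mt-Atp6, 6 of 249 for mt-Nd3 and 3 of 198 for mt-Nd4l. In contrast, all windows of mt-Nd1, mt-Nd5, mt-Nd6 and mt-Cytb and 96.8% of those of mt-Nd2 occurred in no other gene.

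The shared windows of mt-Co2, mt-Co3, mt-Atp6, mt-Nd3, mt-Nd4l and mt-Nd4 and most of those of mt-Co1 lay in a run of mitochondrial pseudogenes on chromosome 1, on the minus strand between positions 24611535 and 24616197 (Gm28439, Gm10222, Gm28438, Gm28437, Gm10925, Gm28661 and Gm29216). Over 681 aligned bases Gm28661 and mt-Co2 differed at 0 positions. The first 60 bases of both are shown because no read from them could be placed by sequence alone (mt-Co2 at chrM:7013-7072, plus strand, and Gm28661 at chr1:24615506-24615565, minus strand).
mt-Co2: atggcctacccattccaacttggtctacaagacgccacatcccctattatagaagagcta
Gm28661: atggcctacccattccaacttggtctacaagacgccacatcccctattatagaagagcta

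The copy of mt-Nd4, Gm28439, matched 876 of the gene's 1378 bases with 0 differences and then ended, which left 39.2% of the windows of mt-Nd4 to the mitochondrial gene alone. The stretch across this end is shown, with the bases beyond the copy in capitals (chrM:11013-11072, plus strand, bases 847 to 906 of the gene).
mt-Nd4: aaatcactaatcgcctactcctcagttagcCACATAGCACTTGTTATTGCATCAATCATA

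Gm29216 held 26.3% of the windows of mt-Co1 and Gm13340 5.53%, and 69.2% of them occurred in no other gene. The few shared windows of mt-Nd2 lay in Gm13339 on chromosome 2. mt-Atp8 differed from the other unmeasured genes, since all of its windows occurred in no other annotated transcript while its count never exceeded 1. On chromosome 1 the copies of its neighbors, Gm10925 and Gm28661, ended at 24614651 and began at 24614885, and the bases between them were not compared here. How reads with several matches were counted is not given in the sources used here, and the part of the shared sequence in the low counts was not tested. Per-length levels of mt-Nd4 and mt-Co1 are given below on both their whole length and their own windows.

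**Figure D1:**
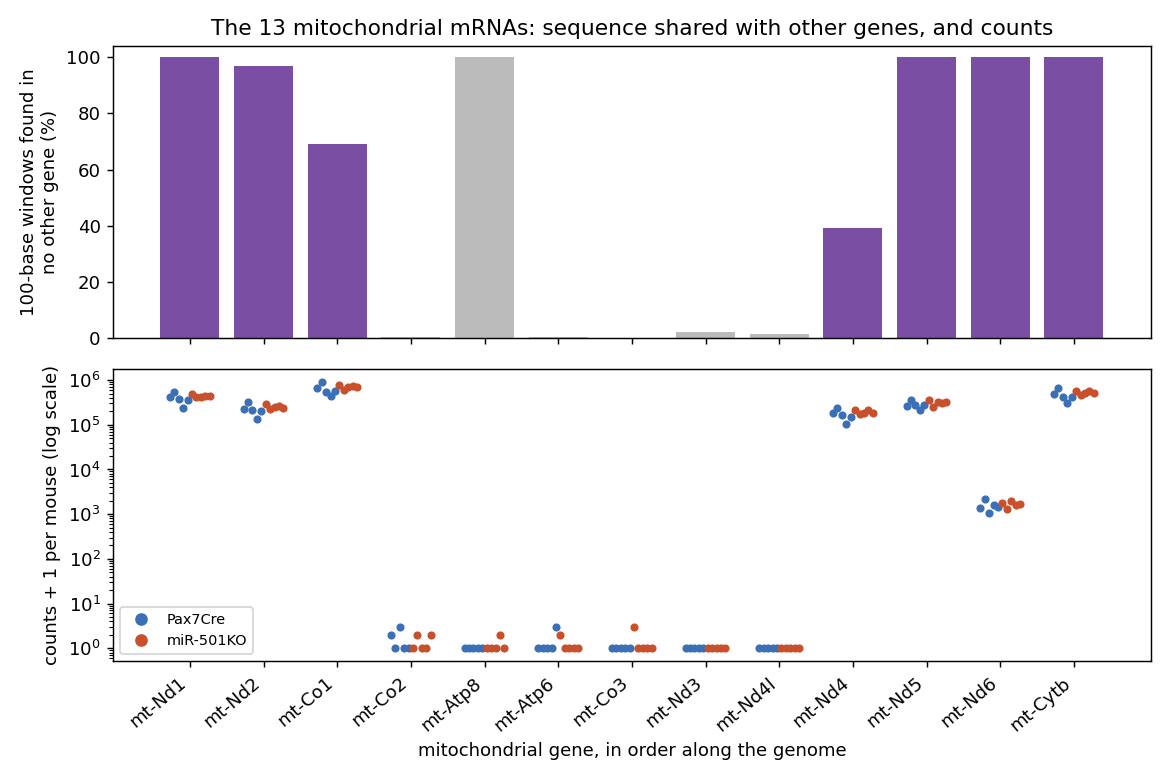
The upper bars give the percentage of 100-base windows of each of the 13 mitochondrial mRNAs found in no other annotated gene, with genes that failed the count minimum in gray, and the lower points give counts + 1 in each of the 10 mice on a log scale. The genes with counts of 0 to 2 are mt-Atp8 and the 5 genes whose windows were nearly all shared, while mt-Nd6 lies far below the other 6 measured genes.

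Per length, the measured mitochondrial mRNAs other than mt-Nd6 were the most abundant members. mt-Nd1 averaged 20134 CPM per kb over the 10 mice, mt-Cytb, the cytochrome b of complex III, 20057 and mt-Co1, the catalytic subunit of complex IV, 19977. The other complex I mRNAs were lower, at 10618 CPM per kb for mt-Nd2, 7505 for mt-Nd5 and 6122 for mt-Nd4. Dividing the same counts by the number of their own windows, in kb, put mt-Co1 at 30865, above mt-Nd1 at 22457 and mt-Cytb at 21957. It put mt-Nd4 at 16805, above mt-Nd2 at 12125. No read was counted by window, and this division assumes that reads from shared stretches were not counted, which is not known. The order of these genes thus depended on that assumption. mt-Nd6, the only protein gene on the light strand, stood far below the others at 142 CPM per kb, within the range of the nuclear members. These are levels as captured by an mRNA library kit and counted with a strand setting that is not given. The part of either in the level of mt-Nd6 was not tested.

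The nuclear members were far lower than the mitochondrial mRNAs other than mt-Nd6. Per kb of annotated exon, medians were 65.3 CPM for complex I, 133 for complex II, 285 for complex III, 224 for complex IV and 157 for complex V. Divided by the length of the principal transcript instead, the medians were 145, 216, 384, 329 and 353 CPM per kb, so complexes IV and V changed places. Per kb of annotated exon, the highest nuclear level in each complex belonged to Ndufb9 (343 CPM per kb), a supernumerary subunit of complex I, to Sdhd (265), a membrane anchor of complex II, to Uqcrh (577), the hinge protein of complex III, to Cox6b1 (947), subunit VIb of complex IV, and to Atp5a1 (484), the alpha subunit of the F1 head. The lowest belonged to the assembly factor Ndufaf2 (5.49), to Sdhc (48.4), the other membrane anchor, to Uqcrc1 (78.4), a core protein, to the testis isoform Cox6b2 (1.15), and to Atp5l (1.58), the g subunit of ATP synthase. Several of these places depended on the length used. By the principal transcript the highest members were Sdhb (294 CPM per kb) in complex II and Atp5b (962), the catalytic beta subunit, in complex V, and the lowest were Ndufaf4 (8.69) in complex I, Uqcrq (143) in complex III and Atp5s (6.10) in complex V, while the other places were kept. For Atp5l, 31.0% of the windows of its 544-base principal transcript occurred in no other gene, but 95.3% of those of all its transcripts. Divided by the latter its level was 1.64 CPM per kb. The part of shared sequence in its count was not tested. For 60 of the 91 nuclear members no window of the principal transcript was shared, and 7 had fewer than 75% of their own, among them Atp5g2, a c-ring subunit, at 13.6%. Over all its transcripts, 37.6% of the windows of Ndufaf2 were its own. Divided by these its level was 14.6 CPM per kb, above that of the assembly factor Ndufaf7 at 5.48.

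No difference between genotypes was detected in any member. No member was called by adjusted p in edgeR's quasi-likelihood test (0% of the 14410 genes were) or in DESeq2's Wald test. None was called by unadjusted p at the same threshold of 0.05, while 0.382% of all genes (55) were higher and 0.666% (96) lower in miR-501KO. Log2 fold changes, miR-501KO over Pax7Cre, ran from -0.14 for the complex I assembly factor Ndufaf1 to 0.096 for the complex I subunit Ndufa7, and no member's value exceeded its standard error (SE), which was 0.072 to 0.291. The 95% intervals of all 98 members lay between -0.73 and 0.62, so a log2 fold change of 1 in either direction lay outside each of them. In no member did the genotypes separate without overlap (0.139% of all genes did).

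The nuclear members had a median log2 fold change of -0.020, with 34 above and 57 below 0, and the 7 mitochondrial members a median of 0.054, with 7 above 0. The median over all genes tested was -0.0042. These directions rested on which Pax7Cre muscles were included. Without Pax7Cre mouse 2 the medians were 0.117 and 0.267, without mouse 4 they were -0.131 and -0.091, and without both they were 0.015 and 0.113. Leaving out mouse 2 brought 3 of the 98 members past an unadjusted p of 0.05, mt-Nd6 (log2 fold change 0.23), Ndufa8 (0.18) and Cox6a2 (0.33), while 1.84% of all genes then tested were higher and 1.28% lower. Leaving out mouse 4 brought 1 of 98, Cox7a2l (-0.17), while 1.57% of all genes were higher and 1.67% lower. None of the 4 passed after adjustment. Without both mice no member passed, while 1.91% of the 14580 genes then tested were higher and 1.73% lower.

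**Figure D2:**
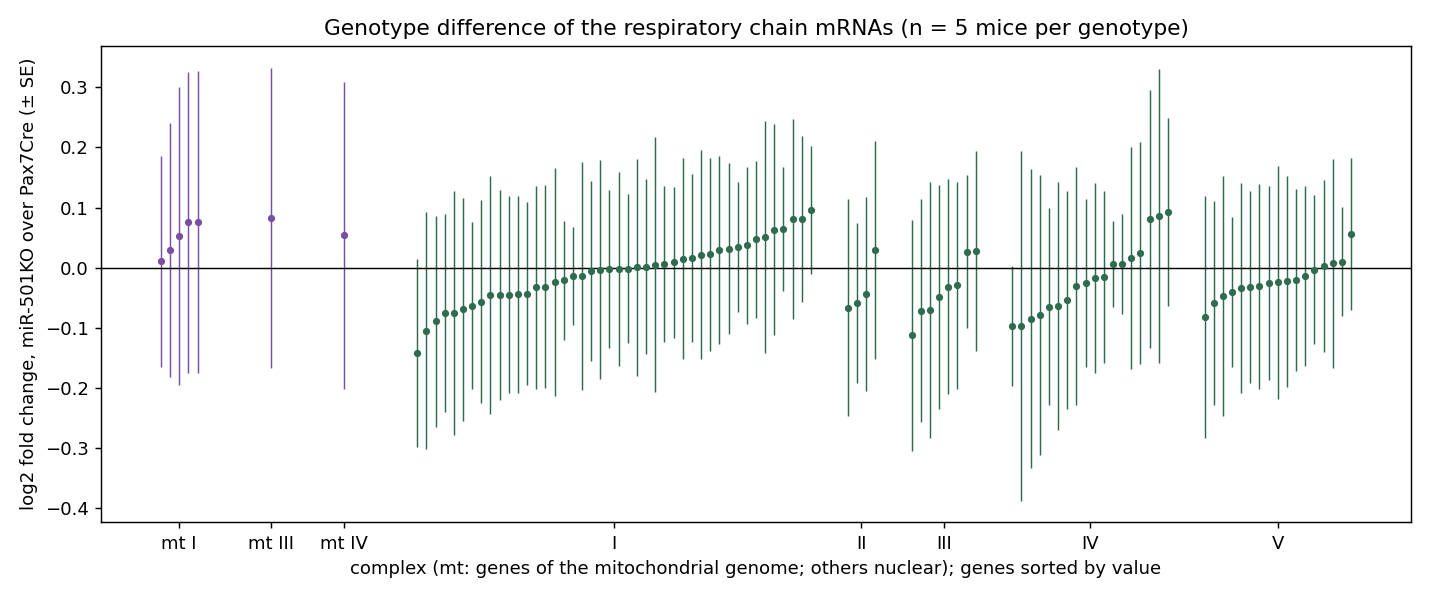
Each point is the log2 fold change of a member, miR-501KO over Pax7Cre, with its SE from edgeR (n = 5 mice per genotype), sorted within each complex, with mitochondrial members in purple and nuclear members in green. Every error bar crosses 0, the values run from -0.14 to 0.096, and the 7 mitochondrial members lie at or just above 0.

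Complex I, the NADH dehydrogenase, had the most members. Summed over the 44 nuclear members, its level in Pax7Cre mice 1 to 5 was 6495, 8580, 5679, 4099 and 5628 CPM, and in miR-501KO mice 1 to 5 it was 5777, 5850, 6033, 6733 and 5719 CPM. The Pax7Cre range enclosed the whole miR-501KO range, and the log2 ratio of the means was -0.018. The 7 nuclear core subunits, which carry the flavin and iron-sulfur clusters, the 29 supernumerary subunits and the 8 assembly factors had median log2 fold changes of -0.043, -0.0015 and -0.0068. Between Pax7Cre mice 2 and 4 they differed by medians of 2.01-fold, 2.21-fold and 1.88-fold. Among complex I members with a fold change below 0 the smallest p was that of Ndufaf1, at 46.0, 58.6, 42.5, 28.9 and 40.7 CPM in Pax7Cre and 33.1, 34.1, 41.1, 45.0 and 43.0 in miR-501KO (unadjusted edgeR p = 0.382, exact permutation p = 0.524, two-sided). Among those with a fold change above 0 it was that of Ndufa7, at 97.8 to 143 CPM in Pax7Cre and 115 to 130 in miR-501KO (exact permutation p = 0.397). Ndufaf7, an assembly factor that methylates a core subunit, was among the members with the smallest spread, at 20.5 ± 2.18 CPM (SD, n = 5) in Pax7Cre and 20.3 ± 0.630 CPM (SD, n = 5) in miR-501KO.

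The complex I mRNAs of the mitochondrial genome showed the same muscles at the extremes. mt-Nd1 stood at 19193, 27953, 20182, 9650 and 17593 CPM in Pax7Cre and at 19490, 19246, 17740, 23328 and 18305 CPM in miR-501KO (log2 fold change 0.053 ± 0.248 SE). mt-Nd2 and mt-Nd4 had the widest spread of the mitochondrial mRNAs, with standard deviations (SD) on the log2 scale within genotype of 0.43 and 0.44 and 3.07-fold and 3.05-fold more in Pax7Cre mouse 2 than in mouse 4. mt-Nd5 differed by 2.18-fold between those mice. mt-Nd6 departed from the rest, with 60.7, 115, 54.9, 64.4 and 71.7 CPM in Pax7Cre and 69.2, 61.4, 83.6, 82.6 and 72.3 CPM in miR-501KO. Its level in Pax7Cre mouse 4 was not the lowest, and the ratio of mouse 2 to mouse 4 was 1.78.

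Complex II, succinate dehydrogenase, is the complex without a mitochondrial gene, and its 4 members had the same mice at the extremes. Sdha, the flavoprotein that oxidizes succinate, was at 457, 700, 416, 366 and 504 CPM in Pax7Cre and 423, 402, 490, 537 and 520 CPM in miR-501KO, with a log2 fold change of -0.043 ± 0.161 SE. Sdhb, the iron-sulfur subunit, was at 210 to 500 CPM in Pax7Cre and 310 to 395 in miR-501KO. Sdhc and Sdhd, which anchor the complex in the membrane, had ranges of 120 to 222 and 205 to 472 CPM in Pax7Cre and of 145 to 164 and 279 to 379 CPM in miR-501KO. In all 4 genes the miR-501KO values lay inside the Pax7Cre range. Their ratios of Pax7Cre mouse 2 to mouse 4 ran from 1.85 to 2.38.

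Complex III, which passes electrons from ubiquinol to cytochrome c, had 8 nuclear members with a summed level of 1775 to 3985 CPM in Pax7Cre and 2576 to 3094 CPM in miR-501KO. Uqcrh, the most abundant of them per length, was at 850, 973, 752, 407 and 647 CPM in Pax7Cre and 698, 740, 702, 749 and 619 CPM in miR-501KO. Uqcrfs1, the Rieske iron-sulfur protein, had the log2 fold change farthest below 0 in this complex, -0.11 ± 0.19 SE. Uqcrc1 was lowest in Pax7Cre mouse 3 at 232 CPM rather than in mouse 4 at 270. The mitochondrial partner mt-Cytb was at 21837, 34341, 22137, 12596 and 20521 CPM in Pax7Cre and 22420, 21952, 21475, 30308 and 21862 CPM in miR-501KO. In mt-Cytb miR-501KO mouse 4 stood above the other mice of its group, which lay within 21475 to 22420.

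Complex IV, cytochrome c oxidase, held the members with the widest and with the narrowest spread. Cox7a1, the heart and muscle isoform of subunit VIIa, had the largest SD of all members, 0.56 on the log2 scale, with 120, 234, 101, 54.2 and 94.7 CPM in Pax7Cre and 97.9, 101, 115, 146 and 105.1 CPM in miR-501KO. Cox8b, the muscle isoform of subunit VIII, followed with an SD of 0.47 and values of 185, 324, 140, 102 and 149 CPM in Pax7Cre and 143, 158, 163, 219 and 165 CPM in miR-501KO. Pax7Cre mouse 2 exceeded mouse 4 by 4.31-fold in Cox7a1, 3.17-fold in Cox8b, 3.06-fold in Ndufa4, a subunit first assigned to complex I, and 2.86-fold in Cox6a2, the muscle isoform of subunit VIa.

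The widely expressed isoforms Cox6a1 and Cox8a did not share this pattern. Cox6a1 had the smallest SD of all members, 0.085, with 140, 118, 124, 140 and 130 CPM in Pax7Cre and 125, 137, 132, 127 and 134 CPM in miR-501KO. Cox8a was at 165, 139, 135, 165 and 149 CPM in Pax7Cre and 148, 166, 141, 151 and 150 CPM in miR-501KO (SD 0.11). In both genes Pax7Cre mouse 2 lay below mouse 4, with ratios of 0.840 and 0.842. Ndufa4l2, the hypoxia-inducible counterpart of Ndufa4, and Cox6b2 were also lower in mouse 2 than in mouse 4, at ratios of 0.598 and 0.501. Cox6b2 was close to the count minimum, at 0.844 to 1.699 CPM over the 10 mice. Cox7a2, the liver isoform of subunit VIIa, differed from Cox6a1 and Cox8a in that it was 2.37-fold higher in mouse 2 than in mouse 4.

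Ratios of the paired isoform genes, taken on counts per kb of exon, put these differences side by side. Cox6a2 over Cox6a1 was 4.41, 8.57, 4.16, 2.52 and 4.66 in Pax7Cre mice 1 to 5 and 4.57 to 5.99 in miR-501KO. Cox8b over Cox8a was 1.93, 4.00, 1.78, 1.07 and 1.72 in Pax7Cre and 1.64 to 2.50 in miR-501KO. Both ratios were thus highest in Pax7Cre mouse 2 and lowest in mouse 4, with all miR-501KO mice between them. Cox7a1 over Cox7a2 ran from 0.741 to 1.35 in Pax7Cre and from 0.817 to 1.11 in miR-501KO, and Ndufa4 over Ndufa4l2 from 4.51 to 23.1 and from 8.79 to 12.4. Cox4i1 over Cox4i2, the isoforms of the regulatory subunit IV, did not follow, since its highest value, 89.0, was in Pax7Cre mouse 1 and mice 2 and 4 had 65.7 and 66.1. Mean log2 ratios of the genotypes differed by -0.121 (Ndufa4 over Ndufa4l2) to 0.151 (Cox6a2 over Cox6a1), in each pair less than the SD within genotype, 0.215 to 0.630. These differences turned with the same Pax7Cre mice. Without mouse 2 that of Cox6a2 over Cox6a1 was 0.38, that of Cox8b over Cox8a 0.27 and that of Ndufa4 over Ndufa4l2 0.15, and without mouse 4 they were -0.058, -0.21 and -0.44.

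**Figure D3:**
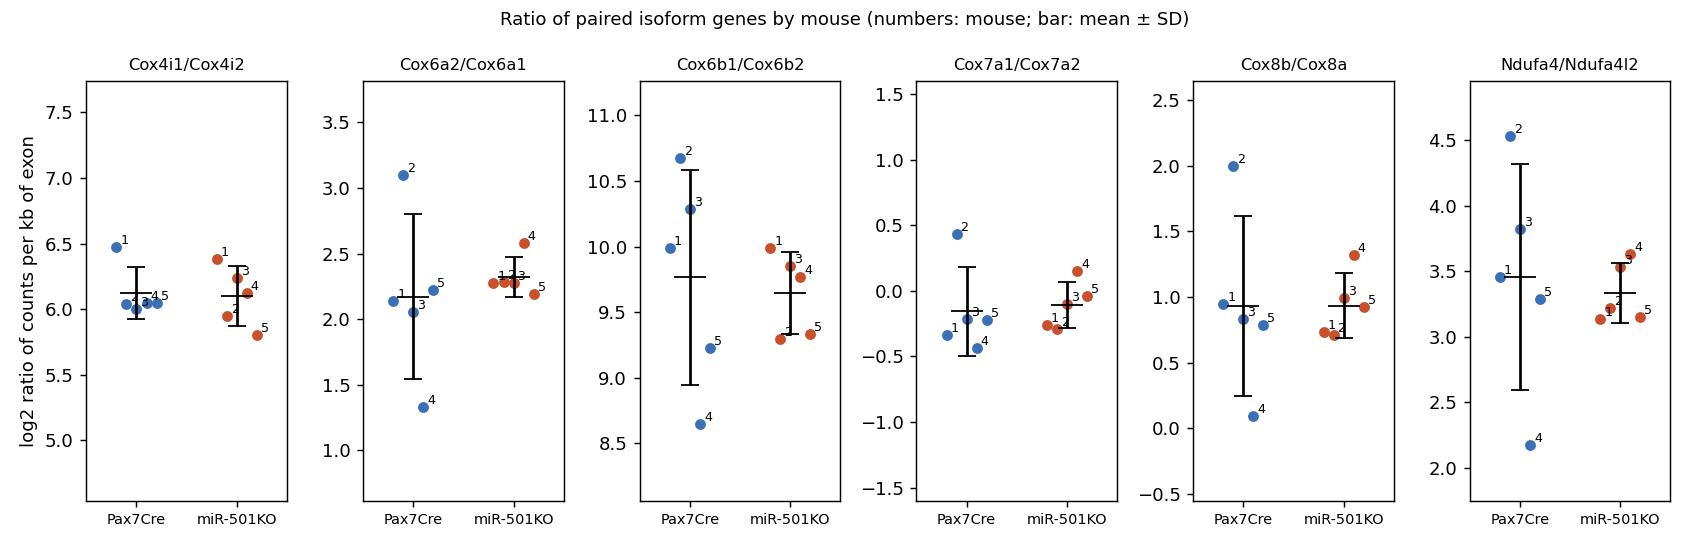
Log2 ratios of counts per kb of exon are plotted for 6 isoform pairs, with a numbered point per mouse and the mean ± SD of each genotype (n = 5). Each panel spans the same number of log2 units. Except in Cox4i1 over Cox4i2, Pax7Cre mouse 2 is the highest and mouse 4 the lowest point, and the miR-501KO mice lie between them.

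Cox7a2l, classed here as a factor for supercomplexes of complexes III and IV, had the smallest p of all members. It was at 234, 220, 197, 158 and 198 CPM in Pax7Cre and 197, 188, 188, 190 and 178 CPM in miR-501KO, a log2 fold change of -0.097 ± 0.100 SE (unadjusted edgeR p = 0.350, exact permutation p = 0.333, two-sided). The miR-501KO values lay inside the Pax7Cre range. The catalytic subunit mt-Co1 was at 30333, 47106, 29146, 17451 and 27390 CPM in Pax7Cre and 31147, 28458, 28744, 39631 and 29245 CPM in miR-501KO (log2 fold change 0.054 ± 0.255 SE).

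Complex V had 17 nuclear members and, without usable counts of mt-Atp6 and mt-Atp8, no mitochondrial one. The F1 head, 5 members that include the catalytic beta subunit, summed to 3369 to 6208 CPM in Pax7Cre and 3904 to 5002 CPM in miR-501KO, and the 3 c-ring genes to 665 to 1121 and 751 to 892 CPM. The 8 stalk and membrane subunits summed to 1644 to 3660 and 2402 to 2850 CPM. Atp5a1 was at 1549, 2170, 1388, 1114 and 1516 CPM in Pax7Cre and 1313, 1245, 1523, 1761 and 1582 CPM in miR-501KO. The ratio of Pax7Cre mouse 2 to mouse 4 was 1.84 for the summed F1 head, 1.69 for the c-ring and 2.23 for the stalk and membrane subunits. In Atp5g3 (c-ring), Atp5d (F1) and Atp5l, Pax7Cre mouse 3 rather than mouse 4 was lowest.

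**Figure D4:**
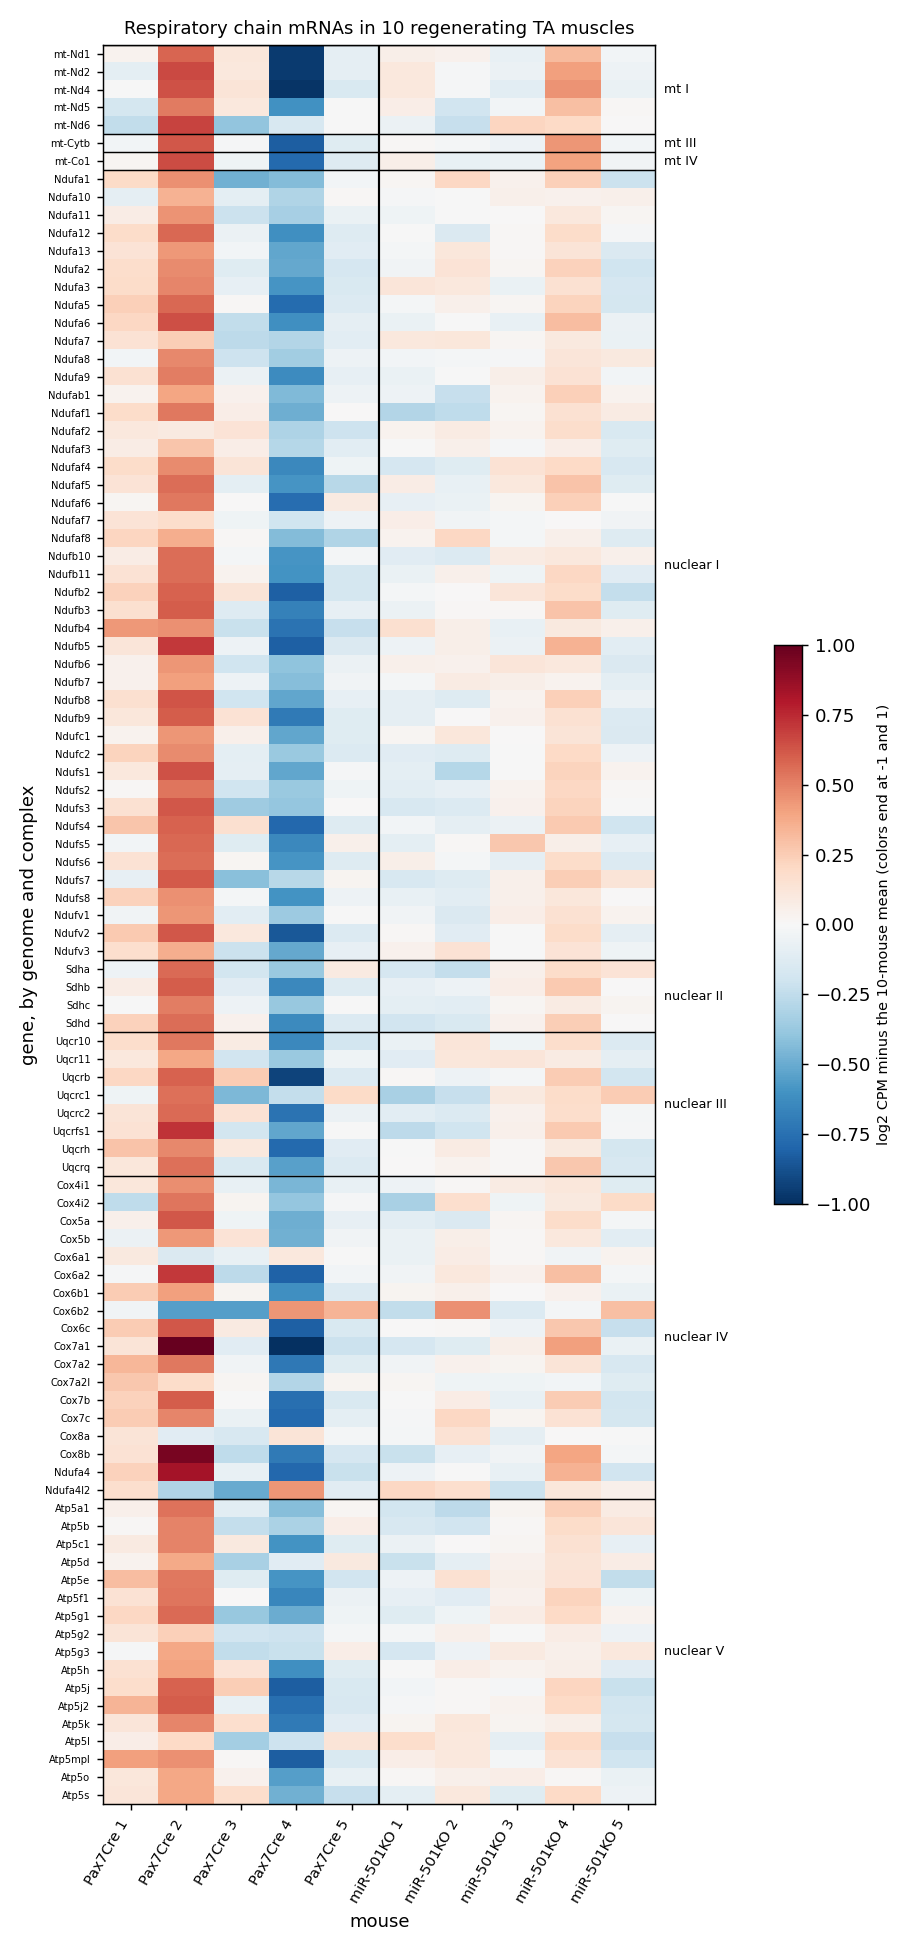
Colors give the log2 CPM of each of the 98 members in each mouse minus that gene's mean over the 10 mice, with rows grouped by genome and complex and the genotypes split by a vertical line. Pax7Cre mouse 2 is above and Pax7Cre mouse 4 below the mean in nearly every row, with Cox6a1, Cox6b2, Cox8a and Ndufa4l2 as exceptions, and miR-501KO mouse 4 is moderately above it.

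Summed over the 91 nuclear members, the level was 24287, 32017, 21373, 15475 and 21448 CPM in Pax7Cre and 21188, 21702, 22667, 25147 and 21748 CPM in miR-501KO, a log2 ratio of -0.027. The 7 mitochondrial mRNAs summed to 101364, 158141, 106294, 58173 and 96287 CPM in Pax7Cre and 107389, 100119, 98980, 135186 and 101061 CPM in miR-501KO, a log2 ratio of 0.061. Both sums were highest in Pax7Cre mouse 2 and lowest in Pax7Cre mouse 4, and within miR-501KO both were highest in mouse 4. The log2 ratios turned with these Pax7Cre mice. For the nuclear and the mitochondrial sum they were 0.12 and 0.26 without mouse 2, -0.14 and -0.090 without mouse 4, and 0.0078 and 0.099 without both, and for the nuclear sum of complex I they were 0.14, -0.13 and 0.021. For the nuclear sums of complexes II to V the ratios were 0.11 to 0.14 without mouse 2, -0.17 to -0.13 without mouse 4 and -0.033 to 0.029 without both. When 1 mouse was left out, the log2 fold change of Sdha ran from -0.13 to 0.12, that of mt-Nd1 from -0.11 to 0.23, that of mt-Cytb from -0.066 to 0.29 and that of mt-Co1 from -0.091 to 0.27. The mitochondrial sum covered the wider range, 2.72-fold between Pax7Cre mice 2 and 4 against 2.07-fold for the nuclear sum. The 7 measured mitochondrial mRNAs held 6.59% to 14.0% of all counts. The means were 10.3% ± 2.65 (SD, n = 5) in Pax7Cre and 10.7% ± 1.16 (SD, n = 5) in miR-501KO. The rest of the 13 mitochondrial mRNAs had no usable counts, so this is not the share of all mitochondrial mRNA.

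The proportions among complexes varied little between mice. Complex I made up 26.2% to 27.3% of the nuclear sum over the 10 mice, complex II 5.30% to 6.11%, complex III 11.5% to 12.9%, complex IV 19.4% to 21.4% and complex V 34.0% to 36.7%. Complex III had its smallest share, 11.5%, and complex V its largest, 36.7%, in Pax7Cre mouse 4. The ratio of the summed 7 measured mitochondrial mRNAs to the nuclear sum ran from 3.76 in Pax7Cre mouse 4 to 5.38 in miR-501KO mouse 4. Its means were 4.47 ± 0.516 (SD, n = 5) in Pax7Cre and 4.81 ± 0.403 (SD, n = 5) in miR-501KO. The sums were not tested.

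**Figure D5:**
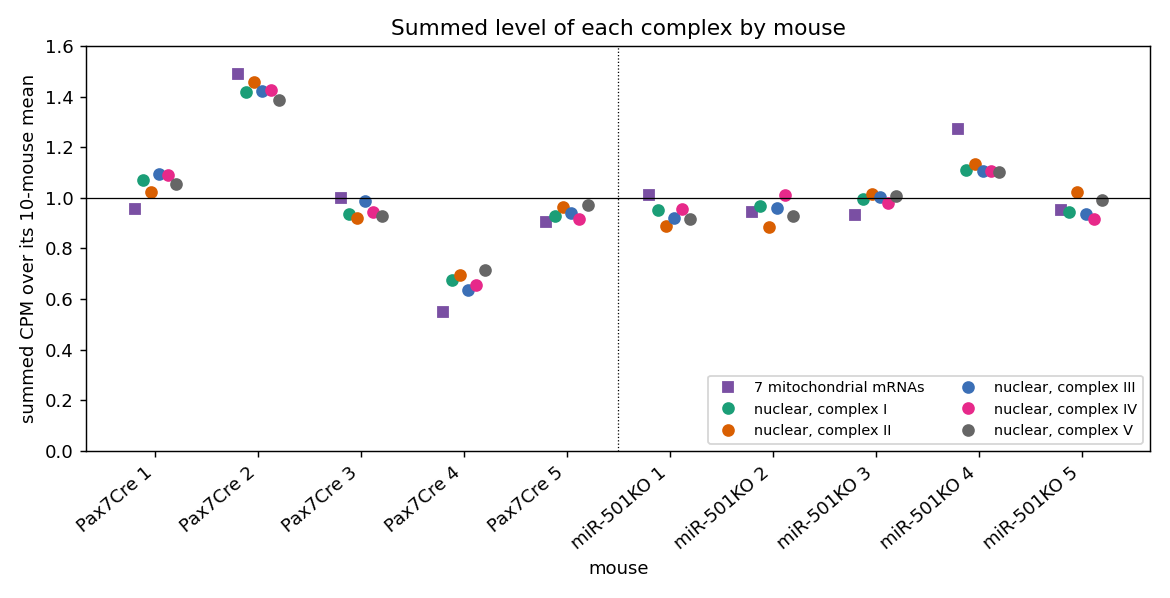
Summed CPM of the nuclear members of each complex (circles) and of the 7 mitochondrial mRNAs (squares) is plotted for each mouse relative to its mean over the 10 mice. All series lie between 1.38 and 1.49 in Pax7Cre mouse 2 and between 0.547 and 0.716 in Pax7Cre mouse 4, and the squares lie farther from 1 than the circles in these mice and in miR-501KO mouse 4.

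The spread between mice differed between the genotypes. The SD of log2 CPM was larger in Pax7Cre than in miR-501KO for 98 of the 98 members, against 79.2% of all genes tested. The median SD of the members was 0.41 in Pax7Cre and 0.14 in miR-501KO, and over all genes it was 0.22 and 0.13. Without Pax7Cre mice 2 and 4, the SD was larger in Pax7Cre for 66 of the 98 members (65 nuclear, 1 mitochondrial) against 62.5% of all genes, and the members' median SD in Pax7Cre was 0.15. These mice are the extremes of their group in most members, so leaving them out lowers the SD of Pax7Cre by construction, and the 3 mice left were compared with all 5 miR-501KO mice, including mouse 4. Within miR-501KO, mouse 4 was the highest of its group in 73 members (24.2% of all genes).

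Markers of mature fast fibers had the same mice at the extremes. All 18 of them, such as Myh4, the myosin heavy chain of fast fibers, were highest in Pax7Cre mouse 2, and 13 were lowest in mouse 4, with a median ratio of 2.50 between them. Their summed level was 47104 to 121265 CPM in Pax7Cre and 75869 to 94706 CPM in miR-501KO, and no marker was at 0. The 8 regenerating fiber markers went the other way between these mice, with a median ratio of 0.552 and 5 of 8 highest in mouse 4. Their sum was 5312 CPM in mouse 2 and 6366 in mouse 4, and the highest Pax7Cre sum was 7737 in mouse 5. In miR-501KO it was 5249 to 7686 CPM. The 10 macrophage markers had a median ratio of 0.803 and summed to 5002 to 7082 CPM in Pax7Cre and 5238 to 6238 CPM in miR-501KO. The 8 slow fiber markers had no common direction between these mice. Their median ratio was 0.754, but their mean log2 level relative to each gene's 10-mouse mean was 0.053 in mouse 2 and -0.196 in mouse 4. They summed to 1803 to 2243 CPM in Pax7Cre and 1885 to 2248 CPM in miR-501KO. The adipocyte markers, 7 of 8 tested, were also higher in mouse 2 than in mouse 4, with a median ratio of 1.78, and summed to 195 (mouse 4) to 370 (mouse 2) CPM in Pax7Cre and 224 to 330 in miR-501KO. The erythroid markers, 5 of 6 tested, had a median ratio of 2.79, were lowest in mouse 4 in 4 of 5 genes and highest in mouse 2 in 0, and summed to 55.5 to 180 and 68.7 to 400 CPM. The highest erythroid sum was that of miR-501KO mouse 2, and the other miR-501KO mice had at most 144 CPM. None of the marker genes was called between genotypes, and the median log2 fold changes of these lists, in the order named, were 0.060, 0.041, 0.016, 0.025, -0.27 and 0.75. The part of the fiber and other cell types in the levels of the members was not tested.

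Genes around the respiratory chain followed the same mice to different degrees. Electron carriers and assembly factors outside the symbol rule were highest in Pax7Cre mouse 2 in 29 of 38 genes, with a median ratio of mouse 2 to mouse 4 of 1.71, and tricarboxylic acid cycle genes in 12 of 14, with a ratio of 1.84. The 78 mitochondrial ribosomal protein genes had a ratio of 1.52, and the 22 genes for expression of mitochondrial DNA 1.31. Between genotypes none of these genes was called after adjustment. Mrps18b, a protein of the small mitochondrial ribosomal subunit, was the only gene of these lists with an unadjusted edgeR p under the threshold, at 17.1, 20.2, 13.8, 16.4 and 17.5 CPM in Pax7Cre and 18.9, 19.8, 18.5, 21.6 and 19.8 CPM in miR-501KO (log2 fold change 0.21 ± 0.10 SE, exact permutation p = 0.048). This call was lost when any of 8 single mice was left out. Median log2 fold changes were -0.024, -0.018, -0.010 and -0.0066 for the lists in the order named.

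The other genes with the smallest edgeR p in each direction of these lists stayed above the threshold. They were Sco2 (log2 fold change -0.17, copper delivery to complex IV), Nubpl (0.18, iron-sulfur cluster assembly of complex I), Idh2 (-0.13) and Suclg2 (0.14) of the tricarboxylic acid cycle, Mrps30 (-0.11), and Fastkd2 (-0.23) and Fastkd3 (0.085), which act on mitochondrial RNA. Idh2, a mitochondrial isocitrate dehydrogenase, had an exact permutation p of 0.048 against an edgeR p of 0.109. Among fiber and cell markers the corresponding log2 fold changes were 0.34 for Myh1, the IIx myosin (0.58 without Pax7Cre mouse 2 and 0.45 without mice 2 and 4, both past the unadjusted threshold), -0.038 for Myh4, 0.16 for Myh7, -0.067 for Atp2a2, 0.18 for Actc1, -0.045 for Myh8, 0.084 for Cd14, -0.22 for Mrc1, -0.38 for Lep and 0.78 for Hbb-bt. The value of Hbb-bt, a beta globin, was 0.13 without miR-501KO mouse 2 and 1.16 without Pax7Cre mouse 3, and that of Lep, leptin, ran from -0.59 to -0.13 when 1 mouse was left out.

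Regulators of mitochondrial biogenesis as a list did not follow the members, with a median ratio of Pax7Cre mouse 2 to mouse 4 of 1.02 over 14 genes, 5 of them highest in mouse 2 and 4 in mouse 4. Ppargc1a, the coactivator PGC-1 alpha, was highest in Pax7Cre mouse 2, at 19.5, 33.8, 17.7, 16.7 and 21.6 CPM in Pax7Cre and 15.7, 12.5, 20.5, 25.6 and 24.7 CPM in miR-501KO. Esrra, the estrogen-related receptor it acts with, was at 41.9, 63.3, 35.9, 38.6 and 47.2 CPM and 36.3, 38.5, 47.3, 53.1 and 45.6 CPM. Esrrg (ratio 2.49), Esrrb (2.23) and Ppara (2.15) were also higher in mouse 2 than in mouse 4, and Ppargc1b had a ratio of 1.26. Nrf1, a transcription factor with sites in many respiratory chain promoters, hardly varied, at 18.02 to 21.8 CPM in Pax7Cre and 20.2 to 23.4 in miR-501KO. The ETS factor Gabpa with its partners Gabpb1 and Gabpb2, Yy1 and the corepressor Nrip1 had ratios of 0.874 to 1.04. Pprc1, a growth-responsive relative of PGC-1 alpha, and Ppard were lower in mouse 2 than in mouse 4, at ratios of 0.524 and 0.755. None of the 14 was called between genotypes, and their log2 fold changes ran from -0.52 (Ppara) to 0.14 (Pprc1).

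Promoters of the nuclear members were searched for 4 short motifs in the RefSeq table for GRCm38.p6, which covers 250 bases before and 50 after each start and had an entry for 75 of the 91 genes (80 promoters). The motif GCGCATGCG of NRF1 was present on either strand in 12.5% of these promoters and in 1.75% of all 32851 promoters, and AAGATGGC of YY1 in 13.8% and 2.75%. TNAAGGTCA of estrogen-related receptors was present in 3.75% against 1.28%, and CCGGAAGT of ETS factors in 6.25% against 3.89%. Of the 75 genes, 28 had at least 1 of these motifs and 47 had none. The 10 members with the NRF1 motif had a median ratio of Pax7Cre mouse 2 to mouse 4 of 1.72 and the other 65 of 2.11. The 11 with the YY1 motif had 2.21 and the other 64 had 2.02, the 3 with the receptor motif 2.30 and the other 72 had 2.05, and the 5 with the ETS motif 2.01 and the other 70 had 2.10. These shares and ratios are descriptions without a test.

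The stretches below lie upstream of the start and outside every annotated exon, with any of the motifs in capitals. Cox6a1 (chr5:115348982-115349129, minus strand) is shown as the member with the smallest spread and carries the NRF1 motif. Atp5g3 (chr2:73911327-73911576, minus strand) carries the receptor motif, and Uqcrh (chr4:116075072-116075268, minus strand) the ETS motif just before its start. Cox7a1 (chr7:30183921-30184143, plus strand) and Cox8b (chr7:140900447-140900696, minus strand) are the members with the largest spread, and none of the 4 motifs was found in their promoter windows.
Cox6a1: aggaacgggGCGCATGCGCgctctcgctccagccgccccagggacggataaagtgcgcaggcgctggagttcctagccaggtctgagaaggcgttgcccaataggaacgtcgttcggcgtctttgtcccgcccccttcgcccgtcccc
Atp5g3: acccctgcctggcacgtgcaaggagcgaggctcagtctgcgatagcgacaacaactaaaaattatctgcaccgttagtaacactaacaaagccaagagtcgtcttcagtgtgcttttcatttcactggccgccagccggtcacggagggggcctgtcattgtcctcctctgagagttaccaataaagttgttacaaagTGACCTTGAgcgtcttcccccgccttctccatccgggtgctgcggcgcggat
Uqcrh: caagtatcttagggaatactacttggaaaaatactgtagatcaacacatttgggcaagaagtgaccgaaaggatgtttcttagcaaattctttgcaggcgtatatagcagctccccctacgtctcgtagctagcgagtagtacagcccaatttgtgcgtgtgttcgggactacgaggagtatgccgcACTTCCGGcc
Cox7a1: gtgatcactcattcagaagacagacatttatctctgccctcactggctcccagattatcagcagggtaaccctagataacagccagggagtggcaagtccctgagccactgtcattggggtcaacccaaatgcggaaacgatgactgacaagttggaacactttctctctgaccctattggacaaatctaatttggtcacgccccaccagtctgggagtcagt
Cox8b: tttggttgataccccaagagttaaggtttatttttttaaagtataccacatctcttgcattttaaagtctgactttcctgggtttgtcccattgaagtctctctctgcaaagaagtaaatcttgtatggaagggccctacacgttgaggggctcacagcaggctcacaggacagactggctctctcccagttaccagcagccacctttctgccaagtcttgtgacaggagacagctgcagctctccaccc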

How the data were processed

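The authors prepared libraries with the TruSeq Stranded mRNA kit from 500 ng of total RNA, sequenced 100-base single-end reads, and deposited whole-number read counts per gene. Per the submitters' processing notes, STAR, featureCounts, R 3.5.1 and GRCm38.p5 were used, and the settings for strand and for reads with several matches are not given in the sources used here. The counts of 10 mice were joined by Ensembl ID, and 25587 of 25700 IDs were matched to GENCODE M21 for symbols, positions and exon lengths. Members, gene lists and motifs were chosen with earlier results of these data known.

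Counts were filtered with filterByExpr (minimum count 10, minimum total 15), which kept 14410 genes, scaled by TMM and tested with edgeR 4.0.16 (R 4.3.3, quasi-likelihood, genotype as the only term, Benjamini-Hochberg adjustment over all genes). Both genotypes entered 1 fit. CPM are TMM-scaled. Exact permutation tests on CPM enumerated all splits of 10 mice, with 0.0079 as the smallest p possible, and these p are unadjusted. On simulated counts the fit was tested before use. Named were the mitochondrial mRNAs, complex II, isoform pairs, highest and lowest levels per length, smallest p in each direction, widest and narrowest spread, and in lists the smallest p and every regulator. Genes outside this rule (Ndufa8, Atp5g3, Atp5d, Atp5g2, Atp5b, Atp5s, Ndufaf4, Uqcrq) were named after their values were seen. DESeq2 1.42.0 was an alternative. Replicates of a genotype are separate mice, and counts of any pair of mice in a genotype differed beyond sampling noise (chi-square per degree of freedom at least 9.46).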

Additional observations from a re-analysis of the deposited data

Results flagged for a closer look

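In each genotype the highest and lowest mouse of 81 quantities was compared with its nearest neighbor (gap over range above 0.71 for 5 mice), and 10 of 162 groups contained such a mouse, where chance alone gives about 1 in 20. The quantities overlap. In miR-501KO mouse 4, 4 quantities stood apart, 1 of which, the mitochondrial sum, contains 2 of the others. The mitochondrial sum was 135186 CPM against 98980 to 107389 CPM in the other mice of the genotype. Of its genes, mt-Cytb was at 30308 CPM against 21475 to 22420, and mt-Co1 at 39631 CPM against 28458 to 31147. The log2 ratio of Cox6a2 over Cox6a1 was 2.58 there against 2.19 to 2.28.

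In Pax7Cre mouse 2, mt-Nd6 was at 115 CPM against 54.9 to 71.7 in the other Pax7Cre mice, Ppargc1a at 33.8 CPM against 16.7 to 21.6, and the log2 ratio of Cox7a1 over Cox7a2 was 0.43 against -0.43 to -0.21. In Pax7Cre mouse 1 the log2 ratio of Cox4i1 over Cox4i2 was 6.48 against 6.00 to 6.05. Actc1, cardiac actin of regenerating fibers, was at 4014 CPM in Pax7Cre mouse 5 against 2603 to 2796, and Nubpl at 7.12 CPM in miR-501KO mouse 1 against 4.91 to 5.42.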

How the results depend on the processing

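No gene was called after adjustment under any setting run. By unadjusted p, the counts over all genes (55 higher, 96 lower) were 153 and 159 with no filter, 36 higher with 10 counts in every mouse, 39 to 267 higher and 59 to 242 lower when 1 mouse was left out. Leaving out Pax7Cre mice 2 and 4 together, and the comparisons of SD without them, were chosen after seeing the data. For the members these counts were 0 to 3 higher and 0 to 1 lower when 1 mouse was left out, and 0 under every other setting. The cause was not tested. The largest of these counts came from leaving out Pax7Cre mouse 2 (higher) or mouse 4 (lower), and the 59 from leaving out miR-501KO mouse 1. Mouse numbers 1 to 5 gave correlations between same-numbered mice of 0.34, -0.15, 0.16, -0.30 and 0.20. They had no common sign, and whether same-numbered mice were littermates or handled together cannot be told from them. With the replicate block 87 genes were higher and 102 lower, with no member among them. When 1 mouse was left out, the median log2 fold change ran from -0.13 to 0.12 for nuclear and from -0.091 to 0.27 for mitochondrial members, the difference in the mitochondrial share from -0.43 to 1.42 percentage points, and differences in isoform log2 ratios from -0.44 to 0.38. Without Pax7Cre mouse 2 alone, 96 members had the larger SD in Pax7Cre (69.7% of all genes), and without mouse 4 alone 98 (75.9% of all genes). Of 1122 values of 66 named genes under other settings, 1103 kept their side of the threshold, 8 fell short (all Mrps18b) and 11 passed it: mt-Nd6, Cox6a2, Suclg2, Myh1 and Mrc1 without Pax7Cre mouse 2, Cox7a2l, Fastkd2 and Pprc1 without mouse 4, Mrc1 without mouse 5, Myh1 without mice 2 and 4, and Hbb-bt with the replicate block. In 113 of them, from 41 genes, the fold change lay on the other side of 0. No fold change that lay beyond 1 SE of 0 both with and without the alternative reversed, and the side of 0 on which the other values lie is not a stable direction. Counts limit Cox6b2, at about 1 CPM, and the 6 mitochondrial mRNAs with at most 2 counts a library could not be compared.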
